A study of Homo sapiens with 22 samples.

Results

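Expression of 10 histone deacetylase (HDAC) genes was compared between untreated and treated B-cell lymphoma cell lines. The genes HDAC1, HDAC2, HDAC3, HDAC4, HDAC5, HDAC6, HDAC7, HDAC8, HDAC9 and HDAC11 were chosen by name, from the family of enzymes that the drug trichostatin A (TSA) inhibits. All 10 were represented among the 15461 genes named on the array, by 11 of its 32878 elements, HDAC9 by 2 elements and the other genes by 1 element each. Each of 11 established lines was grown as 1 untreated culture and 1 culture given both 5-aza-2'-deoxycytidine (aza) and TSA (aza/TSA), making 22 arrays. The Burkitt lymphoma (BL) lines were Raji, BL41 and Ramos, and the follicular lymphoma (FL) lines were K422, SC-1 and ROS50. Diffuse large B-cell lymphoma was represented by HLY-1, OciLy3 and OciLy10 of the activated B-cell type (DLBCL ABC) and by SUDHL4 and SUDHL6 of the germinal center type (DLBCL GCB). Treated cells were exposed to 1 µM aza for 72 h, renewed every 24 h per the labels, with 0.5 µM TSA present during the final 12 h. No culture received aza or TSA alone, so the contributions of the 2 drugs cannot be told apart, and each line contributed a single culture per condition. The p-values therefore measure the spread between lines.

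Histone deacetylases remove acetyl groups from lysines of histones and of other proteins, which tightens chromatin and lowers transcription of many genes. The zinc-dependent enzymes fall into class I (HDAC1, HDAC2, HDAC3 and HDAC8, mostly nuclear), class IIa (HDAC4, HDAC5, HDAC7 and HDAC9, which shuttle between nucleus and cytoplasm and repress MEF2 factors), class IIb (HDAC6 among them, a mainly cytoplasmic enzyme) and class IV (HDAC11). TSA occupies the zinc-containing catalytic pocket, whereas aza is built into DNA and traps DNA methyltransferases, which lowers methylation at CpG sites. Inhibition of enzyme activity is not visible on an array, which measures transcript levels only.

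All values below are log2 signals after quantile normalization, on which scale a difference of 1 is 2-fold and the median of every array is 10.18. An element was called detected if it lay above that median in at least 6 arrays of its higher group, which held for 9 of the 10 genes, the exception being HDAC9. Levels are compared between samples and never between genes, since each element has its own brightness. In samples of whole cultures, a lower signal from fewer expressing cells and one from less RNA per cell cannot be told apart.

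After aza/TSA, 3 of the 10 genes rose (HDAC3, HDAC5 and HDAC11), 3 fell (HDAC7, HDAC8 and HDAC9) and 4 were not called (HDAC1, HDAC2, HDAC4 and HDAC6) by limma, in a fit blocked on the line, at an adjusted p of 0.05. Over the whole array, undetected elements included, 11.2% of the elements were called higher and 12.4% lower by the same test. The median absolute log2 difference was 0.69 for the 10 genes, beside 0.46 for all detected elements. The median signed difference of the 10 genes was 0.16, beside -0.03 for all elements. The sign of the median of the 10 genes depended on the scaling (-0.07 with median scaling and 0.01 without normalization). By the selection rule of the study's methods, an increase of at least 2-fold in at least 6 of the 11 lines, HDAC5 and HDAC11 qualified, as did 6.52% of all elements. These are 2143 elements, more than the study itself reported by that rule, and the reason was not examined. By the mirror image of that rule, added here for decreases, HDAC7 and HDAC8 qualified, as did 5.80%. For each of the 10 genes the range of untreated signals overlapped that of treated signals. The share of all elements with such an overlap was not computed. Class I held a gene that rose (HDAC3) and one that fell (HDAC8), as did class IIa (HDAC5 and HDAC7), the call of HDAC9 being fragile as described further on.

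**Figure D1:**
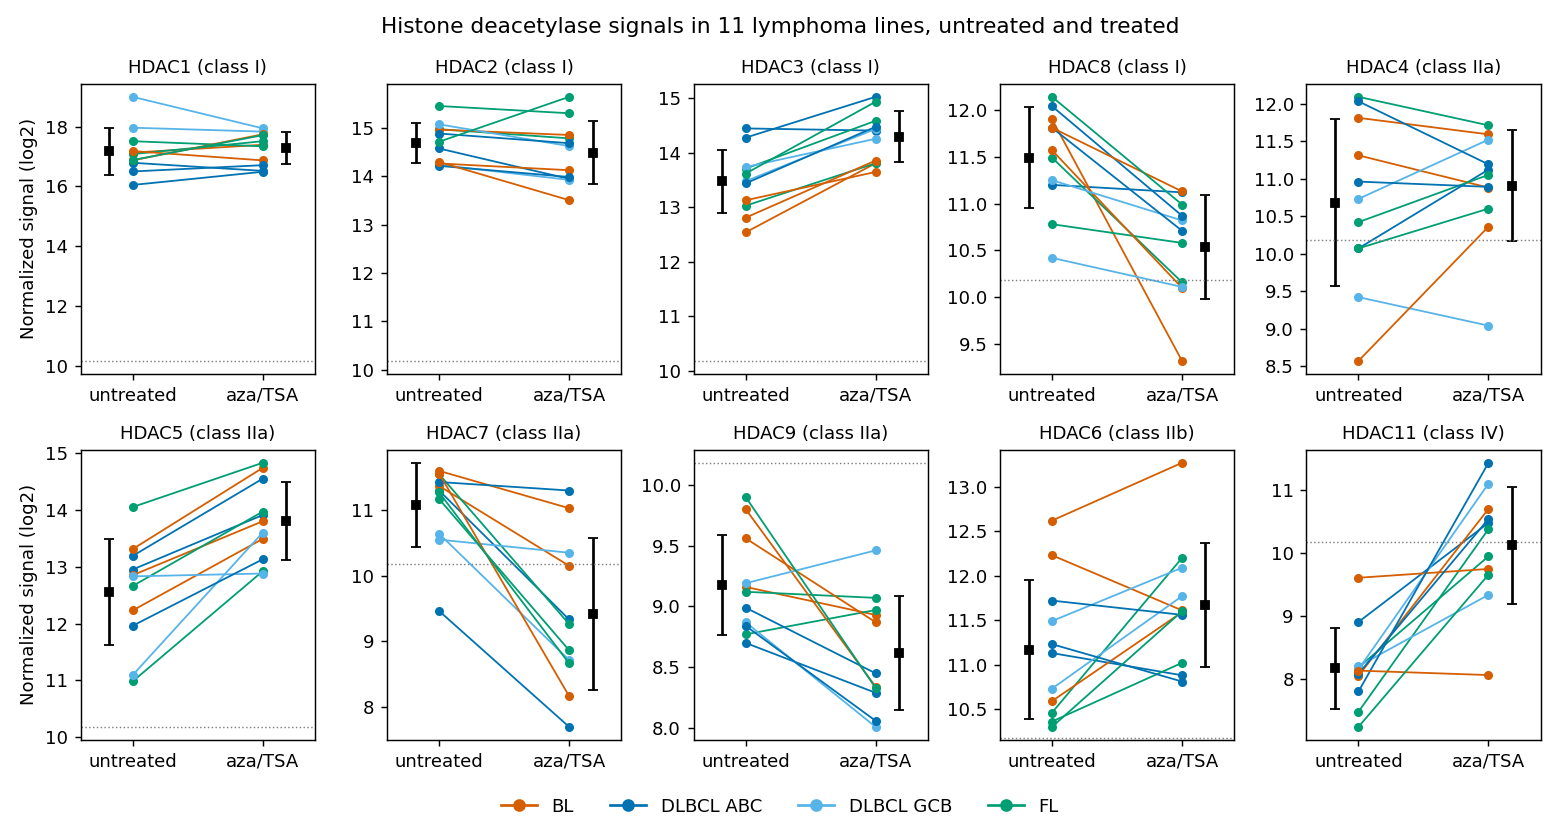
Normalized log2 signal (vertical axis, one scale per gene) of 10 histone deacetylase genes in 11 lymphoma lines, untreated and after aza/TSA, with 1 line per cell line coloured by lymphoma type. Black squares with bars are means with SD (n = 11) and the dotted line is the array median of 10.18. HDAC11 started below that line in all 11 untreated cultures and ended above it in 6 treated ones, whereas HDAC7 went from 10 cultures above it to 3.

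HDAC11, the only class IV enzyme, which is known to remove long fatty acyl groups as well as acetyl groups, showed the largest increase of the 10 genes. The untreated signals ran from 7.25 in ROS50 through a median of 8.14 to 9.61 in Raji, and the treated signals from 8.07 in BL41 through a median of 10.38 to 11.43 in OciLy10. None of the untreated arrays exceeded the array median, and 6 of the treated arrays did. The mean rose from 8.17 ± 0.64 to 10.13 ± 0.93 (SD, n = 11), a log2 difference of 1.95 ± 0.32 (SE, limma, adjusted p = 0.000487) or 3.87-fold. The signal was higher in 10 of 11 lines and at least 2-fold higher in 9. The exceptions were Burkitt lines, BL41 with a difference of -0.08 and Raji with 0.15, while Ramos, the remaining Burkitt line, rose by 2.65. Raji had the highest untreated level of the 11 lines. OciLy10 gained most, 3.62, followed by SUDHL6 with 2.94 and K422 with 2.88. Because all untreated signals were low, the size of the increase depends on how low signals are treated, and with signals floored at the 25th percentile of each array it was 1.36 (adjusted p = 0.00102).

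HDAC5, a class IIa enzyme, rose in all 11 lines. Untreated signals ranged from 10.98 in K422 to 14.05 in ROS50, with a median of 12.83, and treated signals from 12.88 in SUDHL4 to 14.83 in ROS50, with a median of 13.80. The mean went from 12.56 ± 0.93 to 13.80 ± 0.69 (SD, n = 11), a difference of 1.25 ± 0.19 (SE, limma, adjusted p = 0.000314) or 2.37-fold. The lines with the lowest untreated signals, K422 and SUDHL6 (11.09), gained most, 1.94 and 2.51. The untreated value is itself part of the difference, and a relation between starting level and change was not tested for any gene. SUDHL4, of the same lymphoma type as SUDHL6, gained 0.05, and the other 8 lines gained between 0.78 and 1.43. The increase reached 2-fold in 7 lines.

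HDAC3, the class I enzyme that works within the NCoR and SMRT corepressor complexes, rose more modestly. Its signal went from a median of 13.48 (12.54 in Ramos to 14.45 in OciLy3) to a median of 14.41 (13.65 in Raji to 15.03 in OciLy10). The difference of the means, 13.48 ± 0.58 against 14.30 ± 0.47 (SD, n = 11), was 0.82 ± 0.15 (SE, limma, adjusted p = 0.000899) or 1.77-fold. OciLy3, which had the highest untreated level, was the one line without an increase (-0.05), and 4 lines reached 2-fold (ROS50, Ramos, BL41 and HLY-1). The increase shrank to 0.51 (adjusted p = 0.0357) when arrays were scaled to a common median in place of quantile normalization.

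The promoter sequences of HDAC11 and HDAC3 are shown because aza acts at CpG sites, and both genes were higher after treatment. Each window spans 250 bases before to 50 bases after the annotated start, from RefSeq on GRCh38.p14, written 5′ to 3′ on the strand of the gene with each CpG in capitals. HDAC11 lies at chr3:13480306-13506416 on the plus strand, with the window at chr3:13480056-13480355, and HDAC3 at chr5:141620881-141636849 on the minus strand, with the window at chr5:141636800-141637099.
HDAC11: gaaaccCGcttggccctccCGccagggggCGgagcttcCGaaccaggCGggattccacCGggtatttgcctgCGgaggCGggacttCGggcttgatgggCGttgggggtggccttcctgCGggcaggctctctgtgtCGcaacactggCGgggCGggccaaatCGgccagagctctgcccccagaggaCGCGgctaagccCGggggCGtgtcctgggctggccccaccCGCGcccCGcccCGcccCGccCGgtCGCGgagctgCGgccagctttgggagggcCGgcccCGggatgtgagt
HDAC3: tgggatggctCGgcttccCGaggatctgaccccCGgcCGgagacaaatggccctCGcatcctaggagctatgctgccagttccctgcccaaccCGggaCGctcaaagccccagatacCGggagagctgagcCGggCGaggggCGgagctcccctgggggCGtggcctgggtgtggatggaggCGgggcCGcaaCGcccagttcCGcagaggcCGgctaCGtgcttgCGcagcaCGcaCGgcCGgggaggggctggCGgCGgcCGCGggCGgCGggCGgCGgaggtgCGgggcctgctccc
The HDAC11 window holds 30 CpG sites and the HDAC3 window 31, beside a median of 14 over all 35116 windows of the table. Such counts were not particular to genes that rose. Windows of genes not called higher held 41 (HDAC9), 40 (HDAC4), 28 (HDAC1), 24 (HDAC2) and 21 (HDAC6), and those of HDAC7 and HDAC8 are given below. A relation of CpG content to the changes was not tested. The hexamer GGGCGG, the GC box bound by Sp1 family factors, occurs 5 times in HDAC11 and 3 times in HDAC3, counting both strands, and 45.0% of all windows hold at least 1 copy. No methylation was measured on these arrays.

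HDAC7, a class IIa enzyme with roles in thymocytes, early B-cell precursors and blood vessels, showed the largest decrease. Untreated signals ran from 9.46 in OciLy10 to 11.60 in Raji, with a median of 11.30, and treated signals from 7.69 in OciLy10 to 11.30 in HLY-1, with a median of 9.26. In 10 untreated arrays but only 3 treated arrays (Raji, HLY-1 and SUDHL4) the signal exceeded the array median. The mean fell from 11.08 ± 0.64 to 9.41 ± 1.16 (SD, n = 11), a difference of -1.67 ± 0.29 (SE, limma, adjusted p = 0.000688) or 3.19-fold lower. The decrease was present in all 11 lines and reached 2-fold in 8, but its size was uneven. The difference was -3.40 in BL41 and between -2.61 and -2.30 in the FL lines, but -0.13 in HLY-1, -0.20 in SUDHL4 and -0.56 in Raji. HLY-1 and SUDHL4 belong, with OciLy10, to 3 lines whose arrays had a lower upper range of raw signal than most others. OciLy10 itself had a difference of -1.77. The mean of the 3 was -0.70, and without them the difference was -2.04 (adjusted p = 0.000594).

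HDAC8, a class I enzyme that acts outside the large corepressor complexes and deacetylates the cohesin subunit SMC3, also fell in every line. Its signal ranged from 10.42 in SUDHL4 to 12.14 in ROS50 before treatment, with a median of 11.57, and from 9.32 in Ramos to 11.13 in BL41 after it, with a median of 10.71. The difference between the means of 11.49 ± 0.54 and 10.54 ± 0.56 (SD, n = 11) was -0.96 ± 0.22 (SE, limma, adjusted p = 0.00492) or 1.94-fold. Ramos fell by 2.59, the largest change, and OciLy3 by 0.08, the smallest. In 6 lines the decrease reached 2-fold, which is the smallest number the 6-line rule accepts, and Raji fell by 1.48 and K422 by 1.33. The treated level of HDAC8 bore little relation to the untreated level of the same line (r = 0.12 over 11 lines, a description without a test), as was the case for HDAC9 (0.06) and HDAC11 (-0.10), whereas r was 0.47 for HDAC6, 0.46 for HDAC7 and 0.70 to 0.75 for HDAC1, HDAC2, HDAC3, HDAC4 and HDAC5.

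The promoter windows of HDAC7 and HDAC8 are given in the same way, as those of the detected genes that fell. HDAC7 lies at chr12:47782722-47821344 on the minus strand, and its window at chr12:47819854-47820153 belongs to a start site within the annotated gene. HDAC8 lies at chrX:72329516-72572843 on the minus strand, with the window at chrX:72572794-72573093.
HDAC7: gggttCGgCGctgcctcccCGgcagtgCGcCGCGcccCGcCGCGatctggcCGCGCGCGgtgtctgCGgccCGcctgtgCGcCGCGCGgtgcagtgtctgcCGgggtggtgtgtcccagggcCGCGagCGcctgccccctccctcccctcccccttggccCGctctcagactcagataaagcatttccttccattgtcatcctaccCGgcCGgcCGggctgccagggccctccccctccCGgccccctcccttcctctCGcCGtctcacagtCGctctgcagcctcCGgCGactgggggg
HDAC8: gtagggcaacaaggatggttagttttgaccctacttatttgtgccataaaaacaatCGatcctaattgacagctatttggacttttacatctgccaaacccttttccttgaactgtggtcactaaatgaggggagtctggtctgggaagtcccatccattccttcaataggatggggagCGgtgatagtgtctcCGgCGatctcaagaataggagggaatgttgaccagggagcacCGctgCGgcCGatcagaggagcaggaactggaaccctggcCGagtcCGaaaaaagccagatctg
The HDAC7 window holds 33 CpG sites, more than either window of the genes that rose, and the HDAC8 window holds 9, the fewest among the 9 of 10 genes that matched the table. HDAC5 had no entry in it. GGGCGG was found on neither strand of the HDAC7 and HDAC8 windows. It occurs in 6 of the 9 windows, with 6 copies in HDAC1, 3 in HDAC9 and 1 each in HDAC4 and HDAC6. Of the other motifs searched on both strands, CCAAT occurs in the HDAC1 window alone (34.6% of all windows), CACGTG in the HDAC4 window alone (7.3%) and TGACGTCA in none (1.8%). Only 1 window per gene was searched, the one nearest the outer end of the gene. HDAC4 and HDAC9 have 5 annotated windows each and HDAC6 has 3, so their other start sites are not covered.

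**Figure D2:**
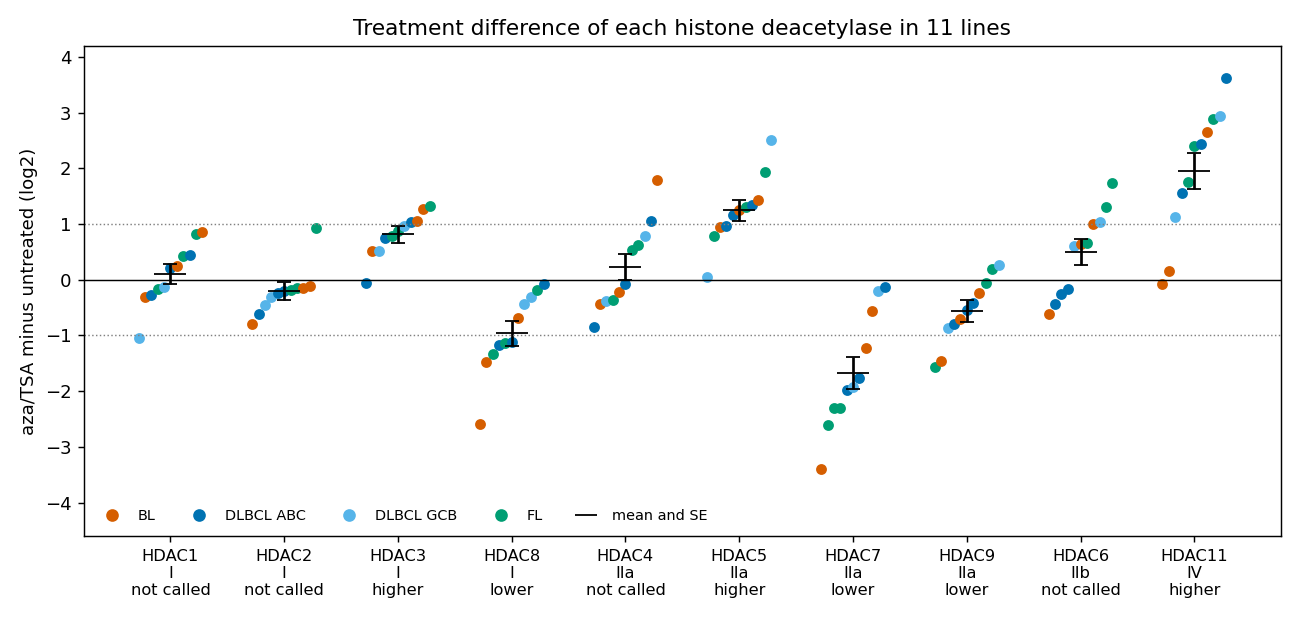
Log2 difference, aza/TSA minus untreated (vertical axis), of each histone deacetylase gene in each of 11 lines (points, coloured by lymphoma type), with mean and SE in black and dotted lines at 2-fold. HDAC5 lay above 0 in 11 lines, and HDAC7 and HDAC8 lay below 0 in 11 lines, while the points of HDAC1, HDAC4 and HDAC6 fell on both sides.

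HDAC9, a class IIa enzyme whose gene at chr7:18086825-19002416 gives several splice forms, was dim on every array, and its call was fragile. On the brighter of its elements the untreated signals ranged from 8.70 in OciLy3 to 9.90 in ROS50 (median 9.12) and the treated signals from 8.01 in SUDHL4 to 9.46 in SUDHL6 (median 8.45), all below the array median. The difference was -0.56 ± 0.19 (SE, n = 11, limma, adjusted p = 0.0475), with 9 lines lower and SC-1 (0.20) and SUDHL6 (0.27) higher. ROS50 and Raji fell most, by 1.57 and 1.46. The call was lost when any 1 line other than SC-1, K422 or SUDHL6 was left out, with adjusted p from 0.0591 without Ramos to 0.103 without Raji (limma). The other element, annotated to 3 of the 4 transcripts of the first, gave a mean of 8.09 untreated and 8.48 treated. Its difference of 0.40 ± 0.27 (SE, n = 11, 95% interval -0.17 to 0.97, limma, adjusted p = 0.33) had the opposite sign, with 7 lines higher and 4 lower. HLY-1 rose by 1.92 on this element and fell by 0.54 on the other, so the elements disagreed within a line as well as on average. No direction is therefore assigned to HDAC9 beyond the call on 1 element.

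**Figure D3:**
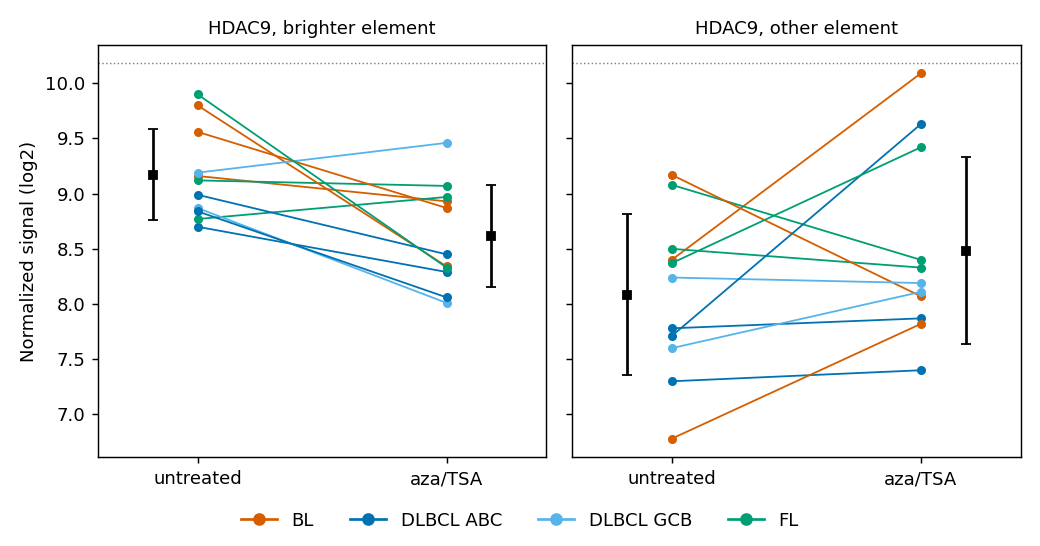
Normalized log2 signal (vertical axis) of the HDAC9 elements in 11 lines, untreated and after aza/TSA, coloured by lymphoma type, with mean and SD as black squares with bars and the array median of 10.18 dotted. The brighter element (left) fell in 9 lines and the other element (right) rose in 7, and all signals of both lay below the array median.

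The remaining 4 genes were not called, and their intervals show which sizes of change the data leave possible. HDAC1, a catalytic subunit of the SIN3, NuRD and CoREST complexes, had untreated signals from 16.05 in OciLy3 to 18.99 in SUDHL6 and treated signals from 16.49 to 17.94. Its difference was 0.10 ± 0.18 (SE, n = 11, 95% interval -0.29 to 0.49, limma, adjusted p = 0.749), and its sign turned with median scaling (-0.35) and without normalization (-0.26). SUDHL6, the line with the highest untreated level, fell by 1.05, and BL41 rose by 0.86. HDAC2, the close paralog of HDAC1 in the same complexes, was lower in 10 of 11 lines, by 0.11 to 0.79, but higher by 0.93 in ROS50. The mean difference of HDAC2 was -0.20 ± 0.16 (SE, n = 11, 95% interval -0.54 to 0.13, limma, adjusted p = 0.399), and it passed the threshold with median scaling alone (-0.60, adjusted p = 0.0178).

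HDAC4, a class IIa enzyme, varied most of the 10 genes between untreated lines, with an SD of 1.11 around a mean of 10.68 (n = 11). The lowest untreated signals were 8.57 in BL41 and 9.42 in SUDHL6, and the highest were 12.03 in HLY-1 and 12.09 in SC-1. BL41 rose by 1.79 and OciLy3 by 1.05, and HLY-1 fell by 0.85, so that after treatment 10 arrays lay above the array median instead of 7. On average the difference was 0.23 ± 0.23 (SE, n = 11, 95% interval -0.27 to 0.72, limma, adjusted p = 0.547).

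HDAC6, the class IIb deacetylase of tubulin and cortactin, had untreated signals from 10.30 in ROS50 to 12.62 in BL41 and treated signals from 10.81 in OciLy10 to 13.27 in BL41. The average difference of 0.50 ± 0.23 (SE, n = 11, 95% interval 0.02 to 0.99) did not pass after adjustment over the array (limma, adjusted p = 0.134). The signal was higher in 7 lines and lower in 4, and within each of 3 of the 4 lymphoma types the lines shared a direction. Lines also shared a direction within at least 3 types for HDAC2, HDAC3, HDAC5, HDAC7, HDAC8 and HDAC11. For HDAC6 the direction was not the same in the 3 types. All 3 FL lines were higher, SC-1 by 1.74, ROS50 by 1.30 and K422 by 0.66, as were both DLBCL GCB lines, SUDHL4 by 1.04 and SUDHL6 by 0.60. All 3 DLBCL ABC lines were lower (HLY-1 -0.16, OciLy3 -0.26 and OciLy10 -0.43), and the Burkitt lines were split, Raji and BL41 being higher and Ramos lower. The F-test of limma between the 4 types gave p = 0.0571 (adjusted p = 0.773), so the types did not pass as different in response. OciLy3 and OciLy10 were also the only lines grown in IMDM, and the mean was -0.34 in these 2 and 0.69 in the 9 lines grown in RPMI. The treatment difference within those 9 lines was not called (limma, adjusted p = 0.061), and the media were not compared by a test.

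For none of the 10 genes did the response differ between lymphoma types by the F-test of limma, at an adjusted p of 0.05 or at an unadjusted p of 0.05, and the same test called 0% of all elements (2141 elements had an unadjusted p under 0.05). Untreated levels did not differ by type after adjustment either, a test that called 0.0973% of all elements. Of the 10 genes HDAC1 alone had an unadjusted p under 0.05 for the untreated level (limma F-test, p = 0.00835, adjusted p = 0.489), beside 2223 of all 32878 elements. Its untreated signals were 17.96 and 18.99 in the DLBCL GCB lines, 16.05 to 16.79 in the DLBCL ABC lines, 16.87 to 17.18 in the Burkitt lines and 16.88 to 17.51 in the FL lines, so the neighbouring Burkitt and FL ranges overlapped.

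Among 9554 detected genes, those whose signals followed HDAC11 most closely over the 22 arrays were GYS1 (Pearson r = 0.83), the muscle glycogen synthase, HECTD3 (r = 0.82), a ubiquitin ligase, and LMNA (r = 0.82), which encodes lamins A and C. These genes rose by 1.22, 1.51 and 2.62 on average. For HDAC7 they were TXNDC15 (r = 0.85), DIS3L (r = 0.84), an exonuclease of the cytoplasmic exosome, and BAG2 (r = 0.82), a cochaperone of HSP70, which fell by 1.97, 1.89 and 1.73. The correlations are descriptions, since the arrays share lines and each gene was selected for its correlation.

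The class I enzymes HDAC1 and HDAC2 act within multiprotein complexes, whose other subunits were examined from lists. The counts of each list stand beside the 11.2% of all elements called higher and the 12.4% called lower. These shares cover all 32878 elements, of which 16945 were detected, whereas most listed genes were detected. Shares among detected elements alone were not computed, so the counts are descriptions without a test. In the NuRD complex, which couples deacetylation to nucleosome remodelling, 4 of 8 measured subunits fell (12.4% of all elements) and 0 rose (11.2%), with a median difference of -0.70. MTA3 fell by 2.34 ± 0.23 (SE, adjusted p = 9.44e-06) and MTA2 by 1.65 ± 0.21 (adjusted p = 7.17e-05, limma, n = 11), each in 11 of 11 lines. The other subunits that fell were MTA1 (-1.23), a paralog of both, and MBD2 (-0.99), which binds methylated DNA, both named after their values were seen. The ATPase CHD4 gave 0.37 ± 0.16 and was not called (adjusted p = 0.115, limma). In the SIN3 complex 5 of 13 subunits rose (11.2% of all elements) and 1 fell (12.4%), with a median of 0.57, and with median scaling 3 rose and 2 fell. SAP130 rose by 1.53 ± 0.16 and ING1, which binds methylated histone H3, by 1.44 ± 0.13 (SE, n = 11, limma, adjusted p = 1.17e-05 and 4.47e-06). RBBP4, a histone-binding subunit shared by SIN3 and NuRD, fell by 0.80 ± 0.15 (limma, adjusted p = 0.00129).

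Among 6 subunits of the CoREST complex, which also holds the demethylase KDM1A, 1 fell, PHF21A, by 0.90 ± 0.16 (SE, n = 11, limma, adjusted p = 0.000892). With median scaling 4 fell, and without the block 0 fell (PHF21A adjusted p = 0.122, limma). For the MiDAC complex 1 of 3 measured subunits rose, DNTTIP1, by 0.57 ± 0.12 (limma, adjusted p = 0.00288), a call that median scaling removed (0.17, adjusted p = 0.47). The NCoR and SMRT complex, the partner of HDAC3, had 2 of 4 measured subunits higher and 1 lower. CORO2A rose by 2.47 ± 0.34 and GPS2 by 1.27 ± 0.16, and TBL1XR1 fell by 1.78 ± 0.17 (SE, n = 11, limma, adjusted p = 0.000116, 7.06e-05 and 8.14e-06), all in 11 of 11 lines.

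The sirtuins are the NAD-dependent deacetylases, which TSA does not inhibit. Of 7 measured, 4 rose (11.2% of all elements) and 0 fell (12.4%), with a median of 0.67. SIRT2, a mainly cytoplasmic deacetylase, rose in 11 of 11 lines by 1.86 ± 0.17 (SE, limma, adjusted p = 5.17e-06), and mitochondrial SIRT4 rose in 10 of 11 by 1.47 ± 0.41 (adjusted p = 0.0176, limma). These 4 calls remained with median scaling, without normalization and in the 8 lines left without HLY-1, OciLy10 and SUDHL4, and without the block 3 remained. Of 12 measured histone acetyltransferases and coactivators, the opposing enzymes, 7 fell (12.4% of all elements) and 2 rose (11.2%), with a median of -0.71. KAT2A fell by 1.44 ± 0.18 and KAT8, which acetylates lysine 16 of histone H4, by 1.29 ± 0.14 (SE, n = 11, limma, adjusted p = 4.69e-05 and 1.84e-05). The increases of NCOA1 (0.65) and KAT6A (0.55) were not called with median scaling, without normalization or in those 8 lines. The decrease of KAT6B, named after its values were seen, was not called in those 8 lines (adjusted p = 0.107, limma), and without the block neither KAT6B nor EP300 was (adjusted p = 0.238 and 0.054, limma), which left 6 and 5 decreases. Of 8 bromodomain proteins, which bind acetylated lysines, 2 fell (12.4% of all elements), BPTF by 1.34 ± 0.16 and BRPF3 by 1.12 ± 0.30 (SE, n = 11, limma, adjusted p = 3.4e-05 and 0.0126), and 0 rose.

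Class IIa enzymes bind MEF2 and BCL6 transcription factors and are held in the cytoplasm by 14-3-3 proteins once kinases phosphorylate them. Among 18 measured partners and kinases, 6 fell (12.4% of all elements) and 1 rose (11.2%), with a median of -0.22. With median scaling 8 fell and 0 rose, and without the block 3 fell and 0 rose. MEF2D fell by 1.16 ± 0.17 and YWHAE, a 14-3-3 protein, by 1.15 ± 0.14 (SE, n = 11, limma, adjusted p = 0.000166 and 5.47e-05), each in 11 of 11 lines. The kinase MARK2 rose by 0.62 ± 0.21 (adjusted p = 0.0493, limma), a call that was kept with the floor and lost in the other 5 alternatives run on the lists (median scaling, no normalization, 8 lines, RPMI lines and no block). The decrease of the kinase PRKD3 (-0.84, named after its values were seen) was lost in 4 of them, with adjusted p from 0.0582 without normalization to 0.206 without the block (limma). Of 7 substrates and partners of HDAC6 and HDAC8, 3 rose (11.2% of all elements) and 2 fell (12.4%), but with median scaling 0 rose and 3 fell, and without normalization 1 rose and 2 fell. Cortactin (CTTN), a substrate of HDAC6, rose by 1.78 ± 0.52 (adjusted p = 0.0229, limma) with a range from -0.51 to 6.69 between lines, and with median scaling it gave 1.45 (adjusted p = 0.0513). PRDX1, another HDAC6 substrate, rose by 0.79 ± 0.13 (limma, adjusted p = 0.000579), and 0.41 with median scaling was not called (adjusted p = 0.0905), nor was the remaining riser, PRDX2, at 0.40 (adjusted p = 0.12). The cohesin acetyltransferase ESCO1 fell by 0.76 ± 0.19 and SMC3, a substrate of HDAC8, by 0.61 ± 0.21 (SE, n = 11, limma, adjusted p = 0.00969 and 0.0476), and neither was called in the 8 lines (adjusted p = 0.0642 and 0.12).

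**Figure D4:**
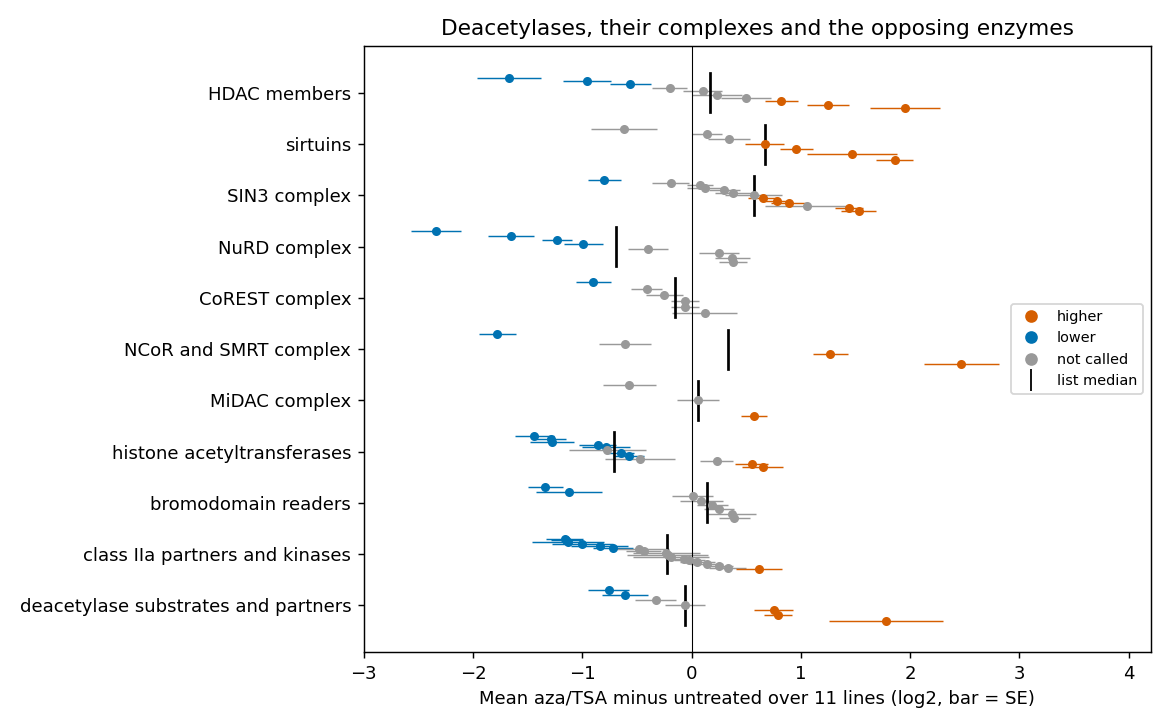
Mean log2 difference over 11 lines, aza/TSA minus untreated (horizontal axis, bars are SE), of the histone deacetylases and of genes of related complexes and enzymes (rows), with list medians as black ticks. Points are orange for genes called higher, blue for genes called lower and grey for genes not called. The sirtuins have 4 orange and 0 blue points, the NuRD complex 4 blue and 0 orange points.

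Genes known to respond to HDAC inhibitors and markers of cell types were read on the same arrays. Of 4 measured response genes, in a list chosen with earlier results of these data known, 4 rose (11.2% of all elements). Among them DHRS2 rose by 7.31 ± 0.67 and the histone gene H2BC21 by 4.89 ± 0.23 (SE, n = 11, limma, adjusted p = 5.3e-06 and 9.63e-08). Of 5 measured B cell markers, 2 lay above the array median in all 11 untreated lines, and PAX5 lay above it in only 2. After treatment 4 fell (12.4% of all elements), CD79B (-2.78) and MS4A1 (-2.55) most, and without the block 2 fell. The summed linear signal of the 5 B cell markers ranged from 14656 to 1408703 untreated and from 4487 to 300980 treated. None of 5 T cell and 5 myeloid markers was called (summed signal 1613 to 87740 and 2987 to 23673 untreated, 2418 to 30263 and 2757 to 40573 treated). By contrast 4 of 5 epithelial markers rose (11.2% of all elements), KRT18 (2.47) and CDH1 (1.94) most (summed signal 1747 to 27305 untreated, 4035 to 29193 treated). Without the block, and in the 8 lines left without HLY-1, OciLy10 and SUDHL4, 3 rose, KRT8 losing its call (limma, adjusted p = 0.206 and 0.0662). No marker was at 0. The part of these shifts in the HDAC results was not tested.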

How the data were processed

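The authors deposited intensity values of the Applied Biosystems arrays on a linear scale and a table of log2 values, which equals quantile normalization of those intensities to 5e-09. Raw array medians were 717 to 1582 (untreated) and 633 to 2154 (aza/TSA). Raw 75th percentiles were 2901 to 4547 for SUDHL4, HLY-1 and OciLy10 and 4310 to 15058 for the other lines. Lymphoma types, media and doses came from the study's methods. The brightest element stood for a gene. Elements were tested with limma 3.58.1 in R 4.3.3 (two-sided, blocked on the line, p-values adjusted by Benjamini-Hochberg over 32878 elements), and the script was tested on simulated data. The arrays of a line pair because they share the line: deviations from group means correlated at 0.361 to 0.585 within lines and at most 0.18 between lines, and the best match was the same line in 11 of 11. Precision is limited by the number of arrays. Members and lists were chosen with earlier results of these data known. The text names all members, the 2 largest called changes per list and direction, and the 3 genes most like the largest riser and faller. Alternatives were median scaling, no normalization, recomputed normalization, detected elements, a floor, a variance trend, no block, mean over elements, lines left out, RPMI lines and 8 lines. For the lists, alternatives were chosen after seeing the data. Protein sequences were not analysed here.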

Additional observations from a re-analysis of the deposited data

Results flagged for a closer look

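HDAC6, which was not called over the 11 lines, had differences of one sign within 3 of the 4 lymphoma types, but not the same sign in all 3. One sign within at least 3 types was also seen for HDAC2, HDAC3, HDAC5, HDAC7, HDAC8 and HDAC11. In each of those genes the sign was the same in these types. The share of all elements with opposed signs between types was not computed. The mean log2 difference after aza/TSA was 1.23 in the FL lines (above 0 in all 3) and 0.82 in the DLBCL GCB lines (above 0 in both), and it was -0.28 in the DLBCL ABC lines (below 0 in all 3, at -0.43 to -0.16). The Burkitt lines were split, Ramos at -0.62 and BL41 at 0.64, with Raji above both. The pairwise differences between types were not tested, and the F-test over all types did not pass (limma, adjusted p = 0.773).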

How the results depend on the processing

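The calls of HDAC3, HDAC5, HDAC7, HDAC8 and HDAC11 were kept, with their directions, under every alternative run and with any 1 line left out (HDAC11 1.78 to 2.15, HDAC5 1.12 to 1.37, HDAC3 0.77 to 0.91, HDAC7 -1.83 to -1.50, HDAC8 -1.04 to -0.79). HDAC1 turned from 0.10 to -0.35 with median scaling and to -0.26 without normalization. HDAC9 lost its call without normalization (-0.48), with the floor (-0.30), with the variance trend (adjusted p = 0.0967), without the cell line block (adjusted p = 0.088), as a mean over both elements (-0.08), in the RPMI lines (adjusted p = 0.115) and in the 8 lines (adjusted p = 0.203), and was not among detected elements. Dropping the block, the paired analysis, changed no other call of the 10 genes. By the 2-fold rule, held at 6 lines, 1 gene in place of 2 was higher with median scaling and in the 8 lines, and 1 in place of 2 was lower with median scaling, without normalization, in the RPMI lines and in the 8 lines (1 to 2 with 1 line left out, 1 without Ramos, K422, Raji, OciLy10, HLY-1 or ROS50). Over all elements 3674 rose and 4064 fell, 47.5% of calls being higher, against 31.6% with median scaling (2603 and 5637) and 40.1% without normalization (2795 and 4168), where the median of all elements was -0.15 and -0.06. The cause was not tested. Signals near or below the array median, as for HDAC9 and untreated HDAC11, limit what these arrays resolve.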

Other observations

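The differences of the 10 genes did not move as one block over the 11 lines. Among 45 pairs, the highest correlations of the differences were 0.59 for HDAC1 with HDAC4 and 0.56 for HDAC5 with HDAC9, and the lowest were -0.55 for HDAC4 with HDAC7 and -0.54 for HDAC3 with HDAC8. The 2 arrays of each line are shared by all pairs, and no test was made. BL41 combined the largest decrease of HDAC7 (-3.40) and the largest increase of HDAC4 (1.79) with no increase of HDAC11 (-0.08), and SUDHL6 combined the largest increase of HDAC5 (2.51) with the largest decrease of HDAC1 (-1.05).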
